A study of Homo sapiens with 9 samples.

Results

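Transcripts of the translation initiation factors were measured in human cells labelled NB4 after 48 h with FB23-2, with FB23 or with the solvent DMSO, in 3 libraries of polyadenylated RNA per group. The group was drawn by symbol: rows that start with EIF and a digit, without the kinases of eIF2, antisense genes and pseudogenes. Of the 60 rows that start this way, 12 were left out, namely 4 kinases, 4 antisense genes, 1 pseudogene and, because their symbols end in P and a digit, the 3 binding proteins EIF4EBP1 to EIF4EBP3, which are taken up with the regulators. That left 48 of the 26830 genes in the files. Per the series title, the treatments served to inhibit FTO, a demethylase of N6-methyladenosine in RNA. The line NB4 was derived from a promyelocytic leukaemia, whereas the cell type label names a monocytic one. No dose is stated, and the compounds were compared at a matched time only. Whether replicates are separate cultures is not stated either, so p-values measure the spread between these libraries, which may be technical.

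Initiation factors bring the small ribosomal subunit and the initiator tRNA to the start codon of an mRNA. The eIF4F complex binds the cap and unwinds the leader, eIF2 carries the initiator tRNA and is recharged with GTP by eIF2B, and eIF3 bridges the mRNA and the ribosome. Further factors read the start codon, join the large subunit or keep the subunits apart, and growing leukaemia cells depend on the supply of these factors to make protein.

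Libraries held between 12360291 and 38410750 expected counts. The marker genes of the label were looked at first. Of 5 granule genes of promyelocytes, none had enough counts to be tested, MPO and CTSG were listed at 0 in the 9 libraries, and the 5 summed to at most 1.77 TPM (transcript abundance scaled for length and library total). Of 7 erythroid genes (globins, KLF1 and ALAS2), all were lower with FB23-2, and their summed level was 3860 to 4430 TPM with FB23-2, 30932 to 33286 TPM with FB23 and 26992 to 28578 TPM in DMSO. The 5 epithelial and fibroblast markers (4 higher and 1 lower with FB23-2) summed to 5699 to 6162 TPM with FB23-2, 1632 to 1717 TPM with FB23 and 1408 to 1457 TPM in DMSO. Most of that sum was VIM, with means of 3958 TPM with FB23-2, 1248 TPM with FB23 and 1037 TPM in DMSO. The lower gene was EPCAM, at 25.5 TPM with FB23-2 and 73.5 TPM in DMSO. The 4 myeloid surface markers summed to 47.8 to 50.9 TPM with FB23-2, 41.0 to 42.9 TPM with FB23 and 48.6 to 49.3 TPM in DMSO. The absent granule genes and the high erythroid sum go against the label NB4 and its promyelocytic origin, and the cells are called here by their treatment. The erythroid and the epithelial and fibroblast sums set the FB23-2 libraries apart, as most initiation factors do. With FB23 the erythroid sum also lay above DMSO, and 3 of its 7 genes were called higher, while the myeloid surface sum was lowest with FB23 and overlapped between FB23-2 and DMSO. The part of these markers in the results was not tested. In bulk RNA, fewer cells of a type and less RNA per cell cannot be told apart.

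Most initiation factor transcripts were lower with FB23-2 than in DMSO. Of the 46 that could be tested, 38 were lower (82.6%) and 5 were higher (10.9%) at an adjusted p under 0.05 (edgeR quasi-likelihood test, two-sided, adjusted over 13365 genes), against 41.3% of all tested genes lower and 41.3% higher. The median log2 fold change of the 46 was -1.02, against 0.01 over all tested genes. A fall of at least 1 on the log2 scale was called for 24 of them (52.2%), against 16.1% of all tested genes. In CPM (counts after TMM scaling to equal totals) the FB23-2 and DMSO libraries did not overlap for 38 lower and 5 higher members, and such a gap was seen on the lower side for 42.1% of all tested genes and on the higher side for 42.1%. Summed over the 48 members, the level was 6996, 6980 and 7261 TPM in FB23-2 replicates 1 to 3, 10332, 10276 and 9877 TPM with FB23, and 10778, 10916 and 10723 TPM in DMSO. The FB23-2 libraries thus held the lowest 3 sums. The 2 members without a test were EIF4E1B, an oocyte relative of the cap-binding protein with 1 count over the FB23-2 libraries and 0 in the others, and EIF1AY.

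**Figure D1:**
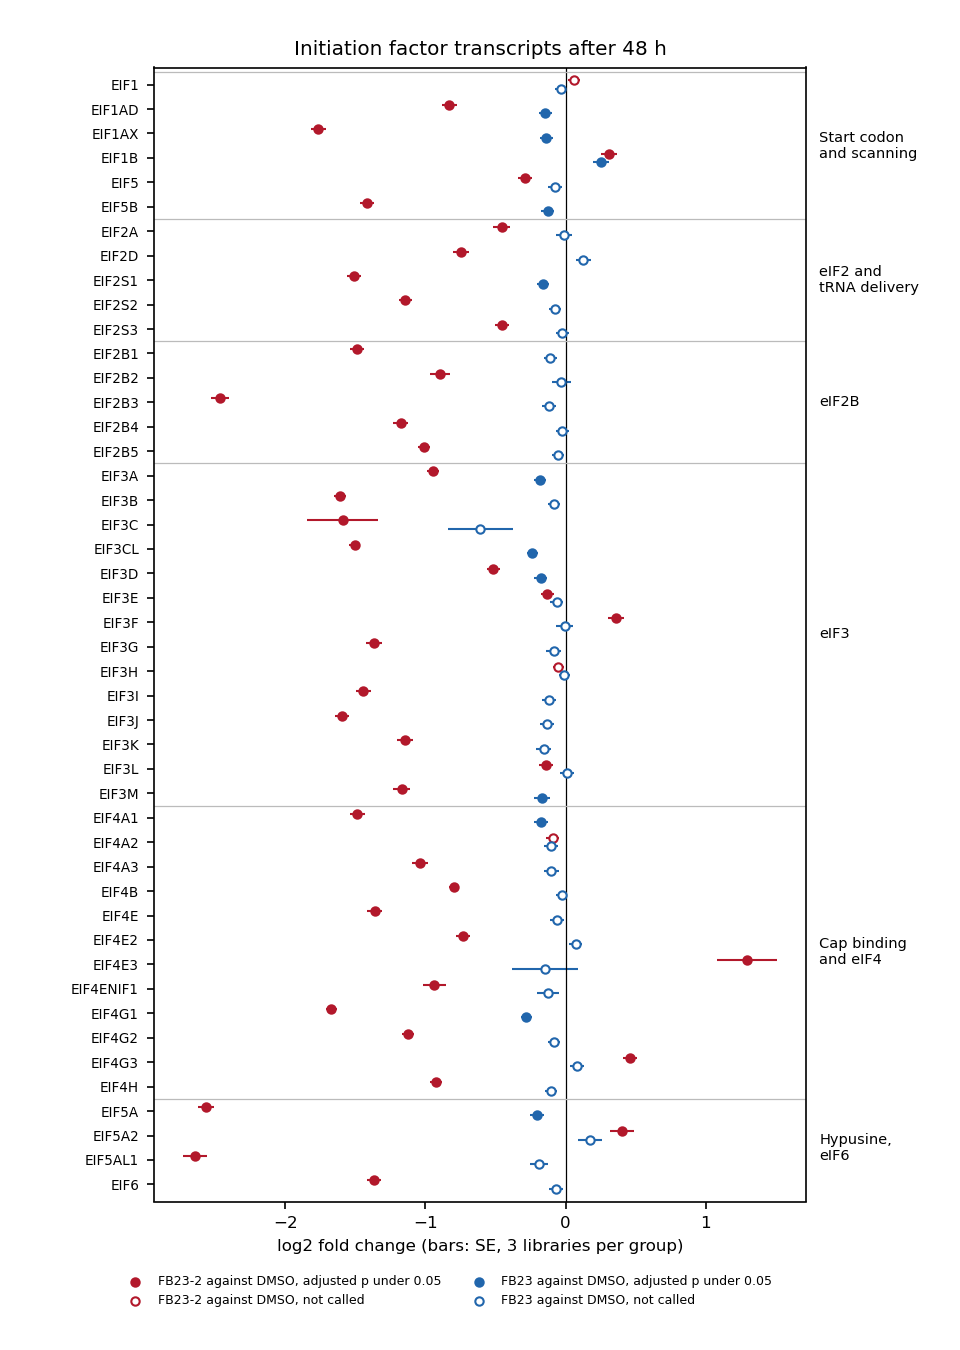
Log2 fold changes (x axis) of the 46 tested initiation factor genes (y axis, grouped by complex) for FB23-2 against DMSO in red and FB23 against DMSO in blue, with standard errors as bars and filled points for an adjusted p under 0.05. With FB23-2, 38 points are called to the left of 0 and 5 to the right, whereas the called FB23 points lie between -0.28 and 0.26.

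The scale moves the size of the changes and can turn the direction of the smallest ones. With TPM as deposited, the median of all tested genes stood 0.19 higher (log2) for FB23-2 against DMSO than in the count test, and with library totals or upper-quartile factors 0.15 and 0.17 higher. Changes are therefore given relative to the count test, and members whose direction turns with the scale are named where they appear.

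**Figure D2:**
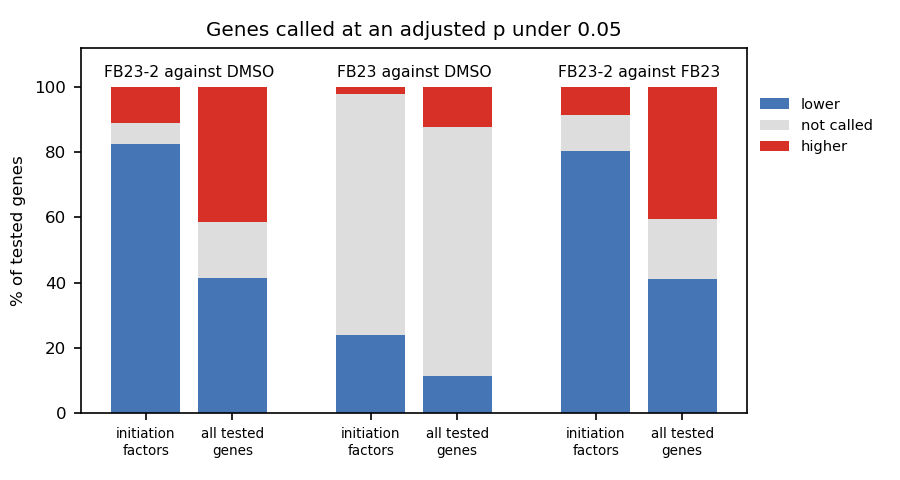
Percent of tested genes (y axis) called lower (blue), not called (grey) and called higher (red) at an adjusted p under 0.05, for the 46 initiation factors and for all 13365 tested genes in each comparison. Lower calls made up 82.6% of the initiation factors with FB23-2 against DMSO and 41.3% of all tested genes, and 23.9% against 11.2% with FB23.

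The start regions of some members are shown because members with opposite changes carried the same letters there. The 250 bases before the start of transcription in the RefSeq table (GRCh38.p14) were searched for the E-box CACGTG, which reads the same on both strands and is the core bound by many helix-loop-helix factors. A window was listed for 41 of the 48 members, and 10 of these genes (24.4%) held the motif in at least 1 window, against 7.73% of 27305 genes with a window and 11.2% of the 9823 tested ones. By direction with FB23-2, it was found for 7 of 32 lower members, 3 of 5 higher ones and 0 of 2 not called. EIF2B3 (chr1:44986596-44986845, minus strand), EIF4G1 (chr3:184314356-184314605, plus strand) and EIF4E (chr4:98929134-98929383, minus strand) were lower with FB23-2, and EIF5A2 (chr3:170908638-170908887, minus strand) and EIF1B (chr3:40309457-40309706, plus strand) were higher. The E-box is in capitals and each window reads 5′ to 3′ towards the start.
EIF2B3: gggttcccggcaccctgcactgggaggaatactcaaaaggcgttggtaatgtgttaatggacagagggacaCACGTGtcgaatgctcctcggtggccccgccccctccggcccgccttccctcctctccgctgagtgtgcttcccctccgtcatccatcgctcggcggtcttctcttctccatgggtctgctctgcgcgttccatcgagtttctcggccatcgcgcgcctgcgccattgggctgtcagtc
EIF4G1: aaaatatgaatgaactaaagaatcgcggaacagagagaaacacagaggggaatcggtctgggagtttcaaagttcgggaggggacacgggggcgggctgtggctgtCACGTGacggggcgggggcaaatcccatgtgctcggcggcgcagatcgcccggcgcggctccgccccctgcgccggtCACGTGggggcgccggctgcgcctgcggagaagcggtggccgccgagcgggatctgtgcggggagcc
EIF4E: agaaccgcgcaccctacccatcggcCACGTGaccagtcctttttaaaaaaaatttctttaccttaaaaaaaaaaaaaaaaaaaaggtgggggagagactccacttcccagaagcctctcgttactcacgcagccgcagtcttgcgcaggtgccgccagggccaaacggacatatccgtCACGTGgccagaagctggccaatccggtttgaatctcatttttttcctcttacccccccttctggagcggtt
EIF5A2: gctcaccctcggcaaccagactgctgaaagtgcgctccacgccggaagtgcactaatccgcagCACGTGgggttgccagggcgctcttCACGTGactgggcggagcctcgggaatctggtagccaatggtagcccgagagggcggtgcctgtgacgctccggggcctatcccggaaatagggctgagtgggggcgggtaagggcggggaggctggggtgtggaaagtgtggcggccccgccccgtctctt
EIF1B: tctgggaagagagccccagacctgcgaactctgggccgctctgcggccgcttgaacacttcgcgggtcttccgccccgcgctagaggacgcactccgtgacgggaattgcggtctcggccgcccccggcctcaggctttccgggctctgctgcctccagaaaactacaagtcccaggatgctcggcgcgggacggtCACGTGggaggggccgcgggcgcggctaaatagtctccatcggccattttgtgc
Of these, EIF4G1, EIF4E and EIF5A2 have 2 copies each and EIF2B3 and EIF1B have 1. A match is a description of the letters and not a binding site, and both lower and higher members carried it.

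Within eIF4F, the complex that binds the cap, all 3 core transcripts were lower with FB23-2. EIF4G1, the scaffold (chromosome 3, 184314495 to 184335358, GRCh38, GENCODE 29), stood at 130.5, 136.7 and 141.2 TPM with FB23-2, 311.4, 305.3 and 293.8 TPM with FB23 and 366.6, 362.1 and 364.6 TPM in DMSO. The 3 groups did not overlap, and the FB23-2 libraries were far below the others. Its log2 fold change was -1.67 ± 0.04 (SE, n = 3 per group) with FB23-2 against DMSO (edgeR adjusted p = 1.58e-16). EIF4A1, the RNA helicase of the complex (chromosome 17, 7572706 to 7579005), had 308.2, 307.9 and 284.7 TPM with FB23-2, 628.7, 658.2 and 621.4 TPM with FB23 and 711.8, 710.4 and 708.1 TPM in DMSO, a log2 fold change of -1.49 ± 0.05 with FB23-2. EIF4E, the cap-binding protein (chromosome 4, 98871684 to 98930637), had 16.09, 16.61 and 18.71 TPM with FB23-2, 37.8, 36.76 and 32.87 TPM with FB23 and 36.14, 38.34 and 36.21 TPM in DMSO. It was lower with FB23-2 by a log2 fold change of -1.36 ± 0.05, and the FB23 and DMSO libraries overlapped.

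The paralogues of these core subunits did not all follow them: EIF4G3 and EIF4E3 were higher with FB23-2, EIF4A2 was not called and EIF4E2 was lower. EIF4A2, a helicase close to EIF4A1, had 330.3, 333.8 and 365.2 TPM with FB23-2, 302.6, 304.9 and 263.6 TPM with FB23 and 313.1, 316.8 and 294.2 TPM in DMSO, and was not called with FB23-2 (log2 -0.09, 95% interval -0.20 to 0.01, adjusted p = 0.0823). Its direction turned with the scale: under library totals the log2 fold change was 0.06, and it was called higher with log2(TPM + 1) (0.15, limma adjusted p = 0.0347) and with GC and length trends removed (0.35, edgeR adjusted p = 2.93e-09). In other settings EIF4A2 was called lower, namely with no filter (-0.12, edgeR adjusted p = 0.0363) and without DMSO replicate 3 (-0.14, edgeR adjusted p = 0.021). The ratio of EIF4A1 to EIF4A2 in TPM was 0.88 ± 0.09 (SD, n = 3) with FB23-2, 2.2 ± 0.14 with FB23 and 2.31 ± 0.09 in DMSO. On these 2 rows, EIF4A2 was the more abundant in each of the 3 FB23-2 libraries and in none of the other 6. That order depends on how reads are split between EIF4A1 and the readthrough row SENP3-EIF4A1. With both rows summed, EIF4A1 had 473.6 CPM with FB23-2, against 330.5 CPM for EIF4A2 (EIF4A1 and EIF4A2 rows of 1815 and 1890 bases). EIF4G3, a second eIF4G scaffold, rose to 33.0, 34.13 and 38.48 TPM with FB23-2, against 23.5, 24.09 and 21.34 TPM with FB23 and 20.38, 22.42 and 21.4 TPM in DMSO. Its log2 fold change with FB23-2 was 0.46 ± 0.05 (adjusted p = 1.42e-07). The ratio of EIF4G1 to EIF4G3 was 3.88 ± 0.18 with FB23-2, 13.2 ± 0.55 with FB23 and 17.1 ± 0.92 in DMSO. EIF4E3, an atypical cap-binding relative, rose the most of all members, with a log2 fold change of 1.29 ± 0.21 (adjusted p = 2.54e-05), but stayed scarce at 1.21, 1.1 and 1.17 TPM with FB23-2, 0.56, 0.3 and 0.32 TPM with FB23 and 0.41, 0.37 and 0.41 TPM in DMSO. Its level rests on 68 to 119 counts per FB23-2 library and 29 or 30 per DMSO library. EIF4E2, a cap-binding protein known for repressing translation, fell with FB23-2 (log2 -0.73 ± 0.05), less than EIF4E, and the ratio of EIF4E to EIF4E2 was 0.78 ± 0.02 with FB23-2, 1.09 ± 0.05 with FB23 and 1.2 ± 0.06 in DMSO.

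**Figure D3:**
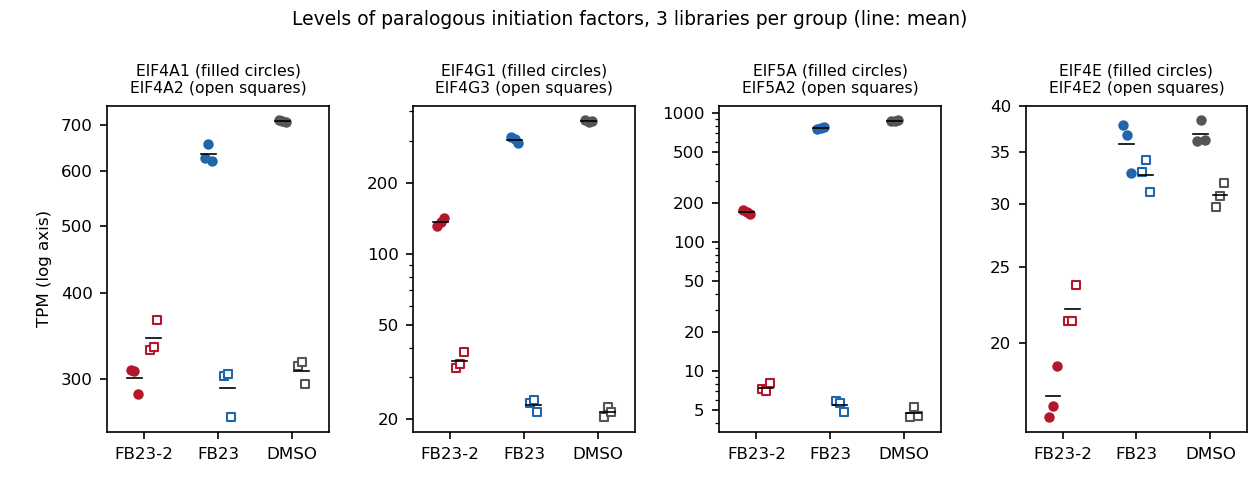
TPM (log axis) of paralogous initiation factors in each library of FB23-2, FB23 and DMSO (x axis), as filled circles and open squares, with lines at the means of 3 libraries. The EIF4A1 row, without the readthrough row SENP3-EIF4A1, lies below EIF4A2 with FB23-2 and above it in the other groups. EIF4E lies below EIF4E2 with FB23-2.

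The remaining members of the eIF4 group were lower with FB23-2. EIF4G2, an eIF4G relative that lacks the EIF4E contact, had a log2 fold change of -1.12 ± 0.04, and EIF4A3, a helicase of the exon junction complex, -1.04 ± 0.06. EIF4B and EIF4H, which stimulate the helicase, had -0.80 ± 0.04 and -0.92 ± 0.04. EIF4ENIF1, which carries EIF4E into the nucleus, had -0.94 ± 0.08. Of the 12 tested members of the eIF4 group, 9 were lower, 2 were higher (EIF4E3 and EIF4G3) and EIF4A2 was not called, with a median log2 fold change of -0.93, against 41.3% of all tested genes called in each direction.

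The transcripts of eIF2, the GTP-binding carrier of the initiator tRNA, fell unequally with FB23-2. EIF2S1, the alpha subunit and the one that stress kinases phosphorylate (chromosome 14, 67359997 to 67386516), had 23.84, 22.86 and 26.21 TPM with FB23-2, 55.28, 53.31 and 49.2 TPM with FB23 and 57.17, 59.33 and 57.67 TPM in DMSO. EIF2S2, the beta subunit, had 77.89, 73.81 and 84.5 TPM with FB23-2, 147.6, 140.6 and 133.1 TPM with FB23 and 145.5, 150.3 and 142.7 TPM in DMSO. EIF2S3, the gamma subunit that binds GTP and the tRNA, was the most abundant of the 3, with 183.5, 175.7 and 204.0 TPM with FB23-2, 230.8, 219.0 and 196.1 TPM with FB23 and 212.8, 220.5 and 214.7 TPM in DMSO. For each of them the FB23-2 libraries lay below all DMSO libraries. The log2 fold changes with FB23-2 against DMSO were -1.51 ± 0.05 for EIF2S1, -1.14 ± 0.05 for EIF2S2 and -0.45 ± 0.05 for EIF2S3 (edgeR adjusted p at most 1.18e-07). EIF2A and EIF2D, which have been described as delivering tRNA without being eIF2 subunits, were also lower in the test (-0.46 ± 0.06 and -0.74 ± 0.06), although the TPM of EIF2A overlapped between FB23-2 and DMSO.

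All 5 subunits of eIF2B, the factor that recharges eIF2 with GTP, were lower with FB23-2, against 41.3% of all tested genes. Among them EIF2B3 stood apart. EIF2B3, the gamma subunit (chromosome 1, 44850522 to 44986722), had 15.65, 16.38 and 16.01 TPM with FB23-2, 72.64, 72.68 and 63.9 TPM with FB23 and 77.49, 72.78 and 73.51 TPM in DMSO. The FB23-2 libraries lay far below the rest, and its log2 fold change was -2.46 ± 0.06, a level 5.52 times lower with FB23-2 (adjusted p = 3.8e-16). EIF2B5, the catalytic epsilon subunit that pairs with it, had -1.01 ± 0.04. The regulatory subunits EIF2B1, EIF2B2 and EIF2B4 had -1.49 ± 0.05, -0.90 ± 0.07 and -1.17 ± 0.05. EIF2B1 was the most abundant of the 5 in every group, at 82.0 ± 4.35 TPM with FB23-2, 182.5 ± 14.4 TPM with FB23 and 193.6 ± 2.91 TPM in DMSO. EIF2B3 was the lowest of the 5 with FB23-2, while EIF2B2 was the lowest with FB23 and in DMSO.

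The subunits of eIF3, the largest initiation complex, did not move as a block with FB23-2. Of 14 tested rows, 12 were lower, EIF3F was higher and EIF3H was not called, with a median log2 fold change of -1.16, against 41.3% of all tested genes called in each direction. The deepest falls were those of EIF3B, a core scaffold subunit, at -1.61 ± 0.04, and EIF3J, a loosely bound subunit, at -1.60 ± 0.05. EIF3B (chromosome 7, 2354086 to 2380745) had 181.4, 180.6 and 190.6 TPM with FB23-2, 468.3, 436.1 and 452.1 TPM with FB23 and 476.2, 472.0 and 472.4 TPM in DMSO. EIF3I and EIF3G, which sit with EIF3B, had -1.44 ± 0.05 and -1.37 ± 0.06, and EIF3M and EIF3K -1.17 ± 0.06 and -1.15 ± 0.06. EIF3A, the other large scaffold, had -0.94 ± 0.04 and EIF3D, a subunit able to bind caps, -0.52 ± 0.05.

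EIF3F went the other way. EIF3F (chromosome 11, 7970251 to 8001862) had 344.9, 336.6 and 326.6 TPM with FB23-2, 211.6, 222.8 and 233.0 TPM with FB23 and 213.4, 227.6 and 224.4 TPM in DMSO, so every FB23-2 library was above the other 6. Its log2 fold change was 0.36 ± 0.06 (adjusted p = 2.38e-05). EIF3E, the most abundant member of the complex, had 757.5, 726.0 and 856.5 TPM with FB23-2, 744.1, 717.1 and 631.4 TPM with FB23 and 708.5, 733.5 and 713.7 TPM in DMSO, and the groups overlapped. EIF3H had 600.8, 616.8 and 618.0 TPM with FB23-2, 573.9, 534.0 and 511.6 TPM with FB23 and 535.2, 538.9 and 532.5 TPM in DMSO. In the count test EIF3E and EIF3L were called lower by small amounts (log2 -0.13 and -0.14) and EIF3H was not called (-0.05, adjusted p = 0.254), and all 3 had positive values with TPM, upper-quartile factors or library totals. With GC and length trends removed EIF3E and EIF3H were called higher (0.44 and 0.57, edgeR adjusted p = 2.19e-11 and 3.54e-12), and with log2(TPM + 1) EIF3H and EIF3L were called higher (0.19 and 0.11, limma adjusted p = 0.00121 and 0.0216). Leaving out DMSO replicate 2, FB23-2 replicate 1 or FB23-2 replicate 2 also ended the EIF3E call. The unequal falls widened the spread within the complex: the highest over the lowest of 13 subunit levels (EIF3C left out) was 12.6 to 13.5 with FB23-2, 5.86 to 6.09 with FB23 and 5.38 to 5.79 in DMSO, while the median subunit stood at 219.4 to 226.9 TPM with FB23-2, 392.0 to 413.1 TPM with FB23 and 430.8 to 452.2 TPM in DMSO.

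**Figure D4:**
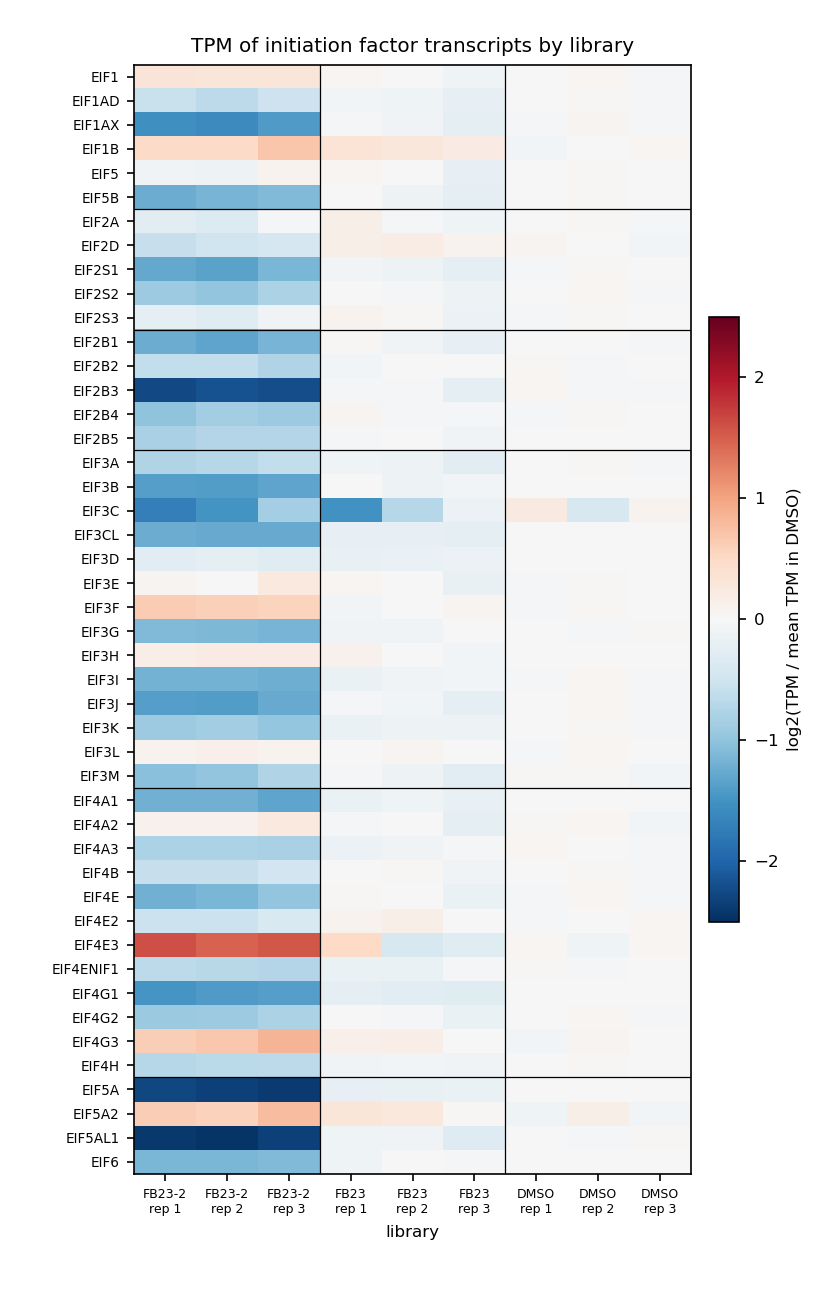
Log2 of TPM over the mean TPM in DMSO (colour) for the 46 tested initiation factors (rows, grouped by complex) in each of 9 libraries (columns, FB23-2 then FB23 then DMSO). The FB23-2 columns are blue for most rows, while EIF4E3, EIF3F, EIF4G3, EIF5A2 and EIF1B are red. EIF1, EIF2A, EIF2S3, EIF3D, EIF3E, EIF3H, EIF3L, EIF4A2 and EIF5 are pale there.

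Among the factors of scanning and start codon choice, EIF1 was not called while EIF1AX fell. EIF1, which keeps the scanning ribosome open, was the most abundant of the 6 tested and had 654.5, 645.8 and 652.6 TPM with FB23-2, 542.4, 533.6 and 490.9 TPM with FB23 and 527.4, 543.4 and 509.9 TPM in DMSO. Its log2 fold change with FB23-2 against DMSO was 0.06 in the test (95% interval -0.03 to 0.15), and it was called higher on the TPM scale, at 0.31. EIF1 was also called higher with upper-quartile factors (0.235), library totals (0.21) and GC and length trends removed (0.513, edgeR adjusted p = 7.3e-12). EIF1AX, the X-linked eIF1A that works with EIF1 (20124518 to 20141844), had 34.67, 33.33 and 37.44 TPM with FB23-2, 98.85, 94.17 and 84.23 TPM with FB23 and 97.58, 104.7 and 98.46 TPM in DMSO. It was lower with FB23-2 by a log2 fold change of -1.76 ± 0.05 (edgeR adjusted p = 1.75e-15), 3.4 times. EIF5B, which joins the large subunit, had -1.42 ± 0.05, and EIF1AD, a nuclear protein with an eIF1A-like domain, -0.83 ± 0.05. EIF5, which triggers GTP hydrolysis on eIF2, had -0.29 ± 0.05 in the test and -0.04 on the TPM scale, where it was no longer called.

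EIF1B, a close relative of EIF1, was higher with both compounds. It had 113.7, 115.0 and 133.1 TPM with FB23-2, 104.2, 99.34 and 94.97 TPM with FB23 and 78.83, 82.04 and 85.35 TPM in DMSO, so all 6 treated libraries were above the 3 DMSO libraries. The log2 fold changes against DMSO were 0.31 ± 0.06 with FB23-2 (adjusted p = 7.48e-05) and 0.26 ± 0.06 with FB23 (adjusted p = 0.00372). The ratio of EIF1 to EIF1B was 5.42 ± 0.46 with FB23-2, 5.25 ± 0.11 with FB23 and 6.43 ± 0.40 in DMSO.

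The deepest falls of all members were at EIF5A and its copy. EIF5A carries the modified amino acid hypusine and helps ribosomes through peptide bonds that form slowly. EIF5A (chromosome 17, 7306999 to 7312463) had 178.9, 172.7 and 165.4 TPM with FB23-2, 748.0, 759.6 and 777.2 TPM with FB23 and 863.6, 861.7 and 876.7 TPM in DMSO. It was the most abundant initiation factor transcript in the DMSO and FB23 groups and ranked 18 of 46 with FB23-2. Its log2 fold change with FB23-2 was -2.57 ± 0.06 (adjusted p = 6.96e-17), a level 5.94 times lower. EIF5AL1, a near copy of EIF5A, had -2.64 ± 0.09 on 4.94% to 6.06% of the reads of the pair. EIF5A2, the second eIF5A gene, rose: 7.23, 7.08 and 8.09 TPM with FB23-2, 5.85, 5.69 and 4.8 TPM with FB23 and 4.41, 5.27 and 4.5 TPM in DMSO, a log2 fold change of 0.40 ± 0.08 (adjusted p = 0.000281). The ratio of EIF5A to EIF5A2 was 23.2 ± 2.39 with FB23-2, 141.1 ± 18.3 with FB23 and 184.7 ± 18.4 in DMSO. EIF6, which keeps the large subunit from joining too early, had 158.2 ± 2.62 TPM with FB23-2, 333.0 ± 11.4 TPM with FB23 and 345.8 ± 4.22 TPM in DMSO, and a log2 fold change of -1.37 ± 0.05 with FB23-2.

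The enzymes that make hypusine, and the mitochondrial initiation factors, form a list of 4 genes. All 4 were called lower with FB23-2, against 41.3% of all tested genes (median log2 -0.85, against 0.01 over all tested genes). DOHH, the second enzyme of hypusine synthesis, had 28.8 ± 0.73 TPM with FB23-2, 79.5 ± 4.82 TPM with FB23 and 92.2 ± 2.5 TPM in DMSO, a log2 fold change of -1.92 ± 0.07 with FB23-2. DHPS, the first enzyme, had -0.20 ± 0.06. MTIF2 and MTIF3, the mitochondrial initiation factors, had -1.27 ± 0.05 and -0.42 ± 0.10. With FB23, DOHH (-0.22) and MTIF2 (-0.14) were called lower, 2 of the 4, against 11.2% of all tested genes. DOHH lost that call without DMSO replicate 1 or FB23 replicate 2, and MTIF2 lost it in 7 of 9 such fits, all but those without FB23 replicate 1 or FB23-2 replicate 3.

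With FB23, changes against DMSO were small and mostly downward. Of the 46 tested members, 11 were lower (23.9%) and 1 was higher (2.17%), EIF1B, against 11.2% of all tested genes lower and 12.3% higher. The median log2 fold change was -0.09, against 0.004 over all tested genes, and no called member moved by more than 0.28. None fell by 1 on the log2 scale, as 0.397% of all tested genes did. In CPM the FB23 and DMSO libraries did not overlap for 18 lower and 2 higher members, against 18.8% and 19.1% of all tested genes. Among called members the largest fall was that of EIF4G1, at -0.28 ± 0.04 (edgeR adjusted p = 8.07e-05), while EIF3C, with its wide spread, had -0.61 ± 0.23 and was not called (adjusted p = 0.0664). EIF3CL had -0.24 ± 0.04, EIF5A -0.20 ± 0.05, EIF3A -0.18 ± 0.04, EIF3D -0.18 ± 0.05, EIF4A1 -0.18 ± 0.05, EIF3M -0.17 ± 0.06 and EIF2S1 -0.16 ± 0.05. EIF1AD, EIF1AX and EIF5B followed at -0.14, -0.14 and -0.13. EIF2B3, which fell so deeply with FB23-2, had -0.12 ± 0.05 with FB23 and was not called, as were the other 4 subunits of eIF2B. Over the alternatives only EIF4G1, EIF3CL, EIF5A, EIF3A and the rise of EIF1B kept their calls throughout, and without DMSO replicate 1 the lower calls numbered 4, with the other 7 lost. Without DMSO replicate 2 or FB23 replicate 2 they numbered 6, and without FB23 replicate 3 EIF5A2 was called higher besides EIF1B. The shares of all tested genes in these fits are not given.

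The compounds were then set against each other. With FB23-2 against FB23, 37 of the 46 members were lower (80.4%), 4 were higher (8.7%) and 5 were not called, against 41.1% of all tested genes lower and 40.4% higher. The median log2 difference was -0.95, against 0.002 over all tested genes, and 19 members (41.3%) were lower by at least 1, against 14.1% of all tested genes. In CPM the groups did not overlap for 36 lower and 6 higher members, against 40.8% and 40.4% of all tested genes. Under limma on log2(TPM + 1) 34 members were called lower and 9 higher, against 30.9% of all tested genes lower and 49.5% higher, and with GC and length trends removed 36 were called lower and 9 higher, against 42% and 41.6%. The differences of EIF5 (-0.21) and EIF3L (-0.15) turned to 0.02 and 0.08 with log2(TPM + 1), and both lost their calls there and with upper-quartile factors or library totals, while that of EIF3C (-0.98) lost its call with log2(TPM + 1) (-0.49). The deepest differences were EIF5AL1 (-2.45 ± 0.08), EIF5A (-2.37 ± 0.06), EIF2B3 (-2.35 ± 0.06), EIF1AX (-1.63 ± 0.05), EIF3B (-1.53 ± 0.04) and EIF3J (-1.47 ± 0.05). The 4 higher ones were EIF4E3 (1.44 ± 0.21), EIF4G3 (0.38 ± 0.05), EIF3F (0.37 ± 0.06) and EIF5A2 (0.23 ± 0.08), the last of which lost its call without FB23 replicate 3. Not called were EIF4A2, EIF3E, EIF3H, EIF1 and EIF1B, whose 95% intervals together ran from -0.17 to 0.19 on the log2 scale. All 11 members called lower with FB23 were lower with FB23-2 than with FB23, and another 26 that were not called with FB23 were lower with FB23-2 against both DMSO and FB23. Both compounds were set against the same DMSO libraries.

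Some rows share reads with a near-identical copy, and their split is uncertain. EIF3C and EIF3CL are such copies, and 96.1% to 98.8% of the reads of the pair were assigned to EIF3CL in every library. EIF3C itself had 4.82, 5.63 and 8.79 TPM with FB23-2, 5.54, 9.6 and 14.21 TPM with FB23 and 18.5, 12.0 and 16.88 TPM in DMSO. Relative to the mean, this was the widest spread between replicates among the tested members. Fitted as 1 gene, EIF3C and EIF3CL gave -1.51 ± 0.04 with FB23-2 and -0.25 ± 0.04 with FB23 against DMSO. The readthrough row SENP3-EIF4A1 held 41.0% to 43.8% of the reads of that pair, and with it EIF4A1 gave -1.51 ± 0.05 with FB23-2 and -0.19 ± 0.05 with FB23. EIF5A with EIF5AL1 gave -2.57 ± 0.06 with FB23-2 and -0.20 ± 0.05 with FB23.

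Genes that regulate initiation were read as a list of 30, all of which were tested. With FB23-2, 9 were higher (30.0%), 18 were lower (60.0%) and 3 were not called, with a median log2 fold change of -0.41, against 41.3% of all tested genes in each direction. With FB23, 5 were higher (DDIT3, MKNK1, EIF4EBP2, MKNK2 and PAIP2), 4 were lower (LARP1, PABPC4, RPTOR and DDX3X) and 21 were not called. These shares of 16.7% higher and 13.3% lower are near the 12.3% and 11.2% of all tested genes. RPTOR lost its call without DMSO replicate 3 and DDX3X without DMSO replicate 1 or 2. With FB23-2 against FB23, 9 were higher, 17 were lower and 4 were not called, against 40.4% of all tested genes higher and 41.1% lower. The 4 largest rises with FB23-2 were those of DDIT3, PDCD4, EIF2AK3 and PPP1R15A.

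DDIT3, a transcription factor induced downstream of eIF2 phosphorylation, had 71.1, 69.44 and 65.12 TPM with FB23-2, 21.39, 22.67 and 22.89 TPM with FB23 and 13.57, 19.86 and 16.19 TPM in DMSO, and the 3 groups did not overlap. Its log2 fold change was 1.81 ± 0.11 with FB23-2 and 0.43 ± 0.12 with FB23, and with FB23 the call was lost without DMSO replicate 1 (0.32) or DMSO replicate 3 (0.41). PDCD4, which binds and blocks EIF4A, had 69.52, 65.58 and 76.43 TPM with FB23-2, 22.3, 23.15 and 21.98 TPM with FB23 and 22.52, 23.83 and 20.56 TPM in DMSO, a log2 fold change of 1.41 ± 0.06 with FB23-2. PPP1R15A, which directs the phosphatase of eIF2, rose by a log2 fold change of 1.10 ± 0.05. ATF4, whose protein is made when eIF2 is phosphorylated, had 319.0, 317.7 and 323.5 TPM with FB23-2, 281.8, 269.3 and 262.2 TPM with FB23 and 270.8, 275.4 and 261.7 TPM in DMSO, so the FB23-2 libraries were above the other 6 on the TPM scale. In the count test it was not called against DMSO with either compound (0.002 with FB23-2, 95% interval -0.09 to 0.09), but with FB23-2 it was called higher under library totals (0.15, edgeR adjusted p = 0.00206), upper-quartile factors (0.17) and log2(TPM + 1) (0.25).

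The 4 kinases of eIF2 did not move together with FB23-2. EIF2AK3, the kinase of the endoplasmic reticulum, had 16.63, 19.21 and 19.53 TPM with FB23-2, 6.42, 6.7 and 5.94 TPM with FB23 and 6.13, 6.03 and 5.95 TPM in DMSO, and it rose (log2 1.36 ± 0.07). EIF2AK4, the amino acid sensor, was lower at -1.0 ± 0.05, and EIF2AK2, the sensor of double-stranded RNA, at -0.70 ± 0.06. EIF2AK1, the haem-regulated kinase of red cell precursors, was called lower by a small amount (-0.10 ± 0.04), which turned positive on the TPM scale (0.15). There EIF2AK1 was called higher (limma adjusted p = 0.0155). Its lower call was lost with DESeq2 size factors, the DESeq2 Wald test, a filter of 1 CPM in 3 libraries and the replicate block. Leaving out DMSO replicate 3, FB23 replicate 2 or FB23-2 replicate 1 or 2 also ended it. With FB23 none of the 4 was called.

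The binding proteins that hold EIF4E away from EIF4G1 were split as well. EIF4EBP1 had 205.0, 203.3 and 179.3 TPM with FB23-2, 343.6, 352.4 and 394.2 TPM with FB23 and 367.7, 368.9 and 362.0 TPM in DMSO, and was lower with FB23-2 (log2 -1.13 ± 0.08). EIF4EBP2 was higher with both compounds, at 65.4, 66.38 and 73.86 TPM with FB23-2, 55.59, 52.46 and 52.23 TPM with FB23 and 42.74, 42.68 and 41.62 TPM in DMSO, with log2 fold changes of 0.44 ± 0.04 with FB23-2 and 0.32 ± 0.04 with FB23. EIF4EBP3 was not called with FB23-2 (0.47 ± 0.25, adjusted p = 0.0922) or FB23, and reads may be shared with the readthrough row ANKHD1-EIF4EBP3. The FB23-2 value depended on the setting: it was called higher without DMSO replicate 1 (0.69, adjusted p = 0.034), with library totals, upper-quartile factors or log2(TPM + 1) and with GC and length trends removed (adjusted p 0.0102 to 0.0295), and ran from 0.18 to 0.69 when libraries were left out. MKNK1 and MKNK2, the kinases that phosphorylate EIF4E, rose with FB23-2 (1.01 ± 0.05 and 1.03 ± 0.05) and, by less, with FB23 (0.41 ± 0.05 and 0.31 ± 0.06). The deepest falls on the list with FB23-2 were those of LARP1, which represses mRNAs of the translation machinery (-1.21 ± 0.04), PABPC4, a poly(A)-binding protein (-1.20 ± 0.04), BZW2, a mimic of EIF5 (-1.17 ± 0.05), and EIF4EBP1. MTOR and RPTOR, of the kinase complex that phosphorylates the binding proteins, had -0.67 ± 0.04 and -1.03 ± 0.05.

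**Figure D5:**
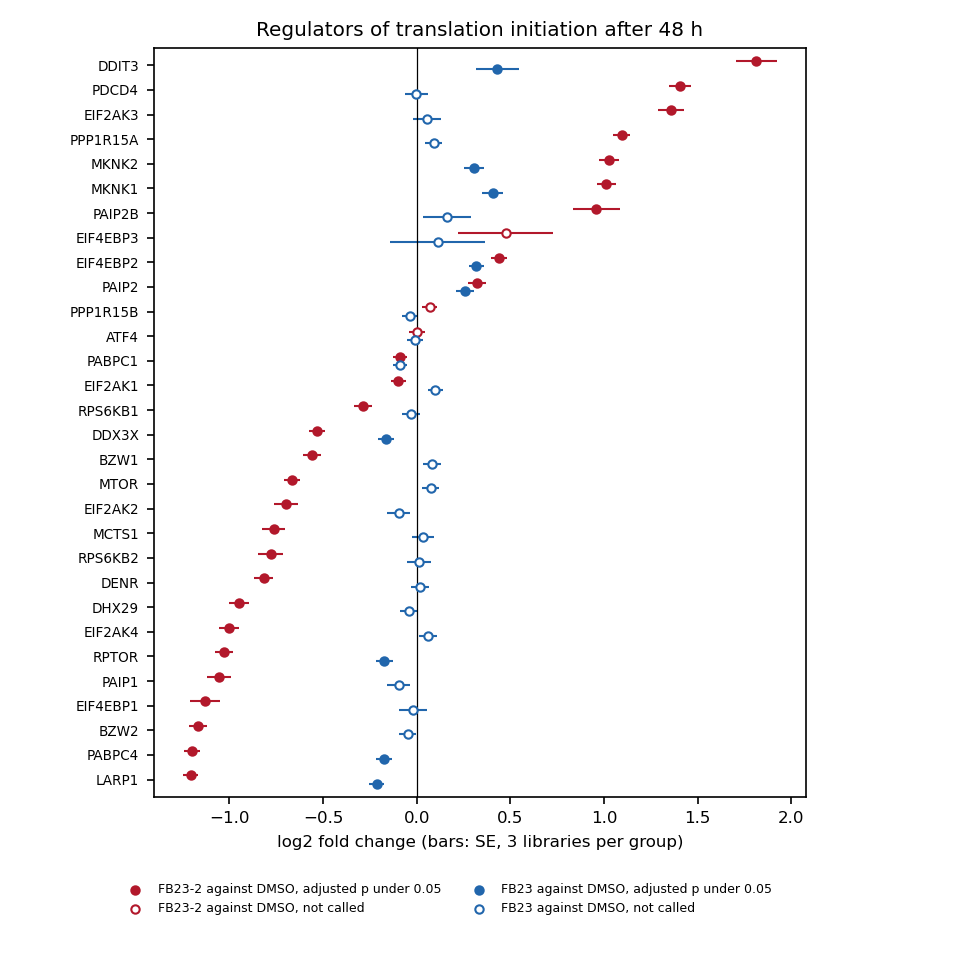
Log2 fold changes (x axis) of the 30 regulators of initiation (y axis, sorted by the value for FB23-2) for FB23-2 against DMSO in red and FB23 against DMSO in blue, with standard errors as bars and filled points for an adjusted p under 0.05. With FB23-2, DDIT3 stands highest at 1.81 and LARP1 lowest at -1.21.

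The later steps of translation gave a mixed picture with FB23-2. Of 14 factors of elongation, termination and recycling, 13 were tested (GSPT2 was listed at 0), 4 were higher, 8 were lower and EEF1G was not called, with a median log2 fold change of -0.36. These are 30.8% higher and 61.5% lower, against 41.3% of all tested genes in each direction. ETF1, the release factor that reads stop codons, had 46.6 ± 3.26 TPM with FB23-2, 142.2 ± 10.8 TPM with FB23 and 163.1 ± 5.2 TPM in DMSO (log2 -2.06 ± 0.05 with FB23-2). ABCE1, which splits ribosomes after termination, had -1.92 ± 0.04. EEF1A2, an isoform of the tRNA-delivering elongation factor, rose by 1.34 ± 0.11 to 39.4 ± 2.52 TPM with FB23-2, against 15.8 ± 2.44 TPM with FB23 and 13.2 ± 0.59 TPM in DMSO. EEF2, the translocation factor, was among the most abundant at 6841 ± 299 TPM with FB23-2, 3941 ± 170.0 TPM with FB23 and 3757 ± 79.6 TPM in DMSO, a log2 fold change of 0.62 ± 0.06 with FB23-2. With FB23, EEFSEC, which delivers selenocysteine tRNA, was higher (0.30), a call lost without FB23 replicate 3 or any 1 DMSO library, and 3 of the 13 were lower (23.1%), namely ETF1, GSPT1 and ABCE1, against 12.3% of all tested genes higher and 11.2% lower. Without DMSO replicate 1 or 2 GSPT1 and ABCE1 lost that call, and ABCE1 also without FB23 replicate 2 or 3.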

How the data were processed

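Poly(A) RNA was extracted with TRIzol, and libraries were built with the NEBNext Ultra Directional kit, per the labels' protocols. Sequencing was by Illumina HiSeq, per the design text. The deposited expected counts are estimates per gene by RSEM 1.2.31 on GRCh38, per the submitters' processing notes. TPM is the deposited abundance per length, per the file headers, and the deposited FPKM was not used. Gene and effective lengths are deposited in bases, per the file headers, with 1 transcript listed for each gene. The sources used here give no aligner, annotation release or strand setting.

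Expected counts were rounded, filtered with filterByExpr (minimum count 10, minimum total 15, 13365 genes left) and scaled with TMM factors. They were fitted with 1 mean per group over 9 libraries in edgeR 4.0.16 (R 4.3.3). P-values come from the two-sided quasi-likelihood F test, adjusted by Benjamini and Hochberg over all tested genes, and an adjusted p under 0.05 is called. SE and 95% intervals derive from the F statistic, and fold changes of low genes depend on the prior count of 0.125. The common biological coefficient of variation was 5.12%. The fit was tested on simulated data. Alternatives used DESeq2 1.42.0, limma 3.58.1, other scalings and filters, and each library left out.

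Members and lists were chosen with earlier results of these data known. Named were the 6 largest rises and falls per comparison, the subunits of eIF2 and eIF4F, the most and least abundant member of each complex, and paralogues. In the other lists they were the 4 (regulators) or 2 largest in each direction, the binding proteins and the kinases. Some others were named after their values were seen, to fill out a complex. Coordinates are from GENCODE 29 (GRCh38). EIF1AY is counted and given no level, and 1 erythroid marker is not reported here.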

Additional observations from a re-analysis of the deposited data

How the results depend on the processing

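The direction of most falls with FB23-2 depended little on the processing, whereas their size moved with the scale. The median log2 fold change of the tested members against DMSO was -1.02 in the count test. It was -0.77 on log2(TPM + 1), -0.85 under upper-quartile scaling, -0.88 under library totals and -0.91 once GC and length trends were removed. Against FB23 the median was -0.95 in the count test and, in that order, -0.66, -0.78, -0.82 and -0.83. The share falling by at least 1 is not given there. Over 20 alternatives, 35 of the 38 lower and 5 of the 5 higher calls against DMSO were kept in every fit, and EIF3E, EIF3L and EIF5 were lost in some. Against FB23, 34 of 37 lower and 3 of 4 higher calls were kept, and EIF3C, EIF3L, EIF5 and EIF5A2 were lost in some. With FB23 against DMSO, 4 of 11 lower calls were kept, so single calls there rest on small differences. The cause of lost calls was not tested. Depth does not limit most members, but EIF4E3 rests on few counts, and with 3 libraries per group the spread of each gene is shared across genes.

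With FB23 against DMSO, the members called lower numbered 7 with library totals, 7 with no filter on low counts, 7 with log2(TPM + 1) and 18 with GC and length trends removed, and 4 to 13 when libraries were left out. Those called higher numbered 3 with GC and length trends removed, 2 with EIF4EBP1 to EIF4EBP3 counted as members, and 1 to 2 when libraries were left out. For FB23-2 against DMSO, those called higher numbered 9 under log2(TPM + 1) and also 9 once GC and length trends were taken out. For FB23-2 against FB23, they numbered 8 with upper-quartile factors, 7 with library totals, 9 with log2(TPM + 1) and 9 with GC and length trends removed. Of all tested genes, 49.5% were called higher in that comparison with log2(TPM + 1) and 41.6% with the trends removed. For the other fits the shares of all tested genes are not given, so those counts show only how the calls moved.

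Some small log2 fold changes turned. With FB23 against DMSO, EIF2S3 gave 0.001 with library totals, 0.007 with no filter and -0.061 to 0.024 when libraries were left out, and EIF4E3 gave -0.348 to 0.002. With FB23-2 against DMSO, the values with upper-quartile factors, library totals and log2(TPM + 1) were 0.044, 0.02 and 0.115 for EIF3E, 0.122, 0.098 and 0.192 for EIF3H, 0.033, 0.009 and 0.107 for EIF3L, 0.08, 0.056 and 0.154 for EIF4A2, and 0.073, 0.049 and 0.15 for EIF2AK1. With GC and length trends removed they were 0.443 for EIF3E, 0.567 for EIF3H, 0.084 for EIF3L and 0.355 for EIF4A2. With FB23-2 against FB23, the first 3 settings gave 0.103, 0.06 and 0.161 for EIF3E and 0.127, 0.084 and 0.182 for EIF3H, and removing the trends gave 0.492 and 0.558. Of these turned values, EIF3E, EIF3H and EIF4A2 were called higher with the trends removed (edgeR adjusted p = 2.19e-11, 3.54e-12 and 2.93e-09 with FB23-2 against DMSO), opposite to the call of EIF3E. With log2(TPM + 1), EIF3L and EIF2AK1 were called higher against their calls with FB23-2 against DMSO (limma adjusted p = 0.0216 and 0.0155). Also against FB23, EIF3L gave 0.018 with upper-quartile factors, 0.083 with log2(TPM + 1) and 0.047 with the trends removed, and EIF5 gave 0.022 with log2(TPM + 1). ATF4 with FB23-2 against DMSO gave -0.024 with no filter, -0.006 with the trends removed and -0.034 to 0.022 when libraries were left out. With FB23-2 against FB23 and no filter, EIF1B gave -0.004 and EIF4A2 -0.045. Both were called higher there with upper-quartile factors (0.223 and 0.18) and library totals (0.181 and 0.136). In the same comparison with libraries left out, EIF4A2 ran from -0.028 to 0.049.

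Same-numbered libraries did not deviate together (r from -0.18 to 0.09 over 9 pairs), so the numbers were not taken to pair the samples. With the replicate number as a block, the members called lower and higher were 38 and 5 with FB23-2 against DMSO, 8 and 1 with FB23 against DMSO, and 37 and 4 with FB23-2 against FB23. The shares of all tested genes under the block are not given.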

Other observations

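EIF3J-AS1, an antisense gene at EIF3J that was left out of the members, had 19.25, 18.32 and 21.51 TPM with FB23-2, 12.07, 10.06 and 10.2 TPM with FB23 and 11.03, 10.54 and 10.38 TPM in DMSO. The FB23-2 libraries lay above the other 6, whereas EIF3J itself lay below them, at 59.8 ± 3.11 TPM with FB23-2, 140.9 ± 11.5 TPM with FB23 and 152.1 ± 4.86 TPM in DMSO. The strand setting of the counting is not given in the sources used here, and without it reads of the gene and its antisense partner cannot be told apart.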
